A study of Homo sapiens with 12 samples.

Results

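Claudins, E-cadherin and the proteins that anchor them were followed as 10 genes in LNCaP cells depleted of FOXA1 or of TRIM28. The genes were CLDN1, CLDN3, CLDN4, CLDN7, CLDN12, CDH1, EPCAM, OCLN, TJP1 and DSP, taken by exact symbol from the 60835 gene symbols of the count tables, and all 10 were found. LNCaP is an androgen-responsive human prostate cancer line that was grown from a lymph node metastasis, and the labels spell its name LACAP in the source field. Poly(A) mRNA was sequenced from cells given shRNA-FOXA1 (3 libraries) and from their NC control, given control shRNA (3 libraries). The same was done for cells given shRNA-TRIM28 (3 libraries) and for their own NC control, also given control shRNA (3 libraries). The series was set up to find genes that depend on FOXA1, a forkhead pioneer factor of luminal prostate cells, or on TRIM28, a corepressor that KRAB zinc finger proteins bring to DNA. The labels do not say how many hairpins or cell clones each knockdown used, and all 12 libraries carry batch label 1.

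Claudins are membrane proteins of the tight junction that decide which ions and solutes pass between epithelial cells. Occludin (OCLN) sits beside them in the tight junction strand, and ZO-1 (TJP1) ties the strand to the actin cytoskeleton. E-cadherin (CDH1) joins neighbouring cells at the adherens junction through catenins, desmoplakin (DSP) links desmosomes to keratin filaments, and EPCAM is a surface protein of epithelia that binds claudin-7. Slug, Snail and ZEB proteins repress several of these genes by binding E-box motifs, and loss of E-cadherin is a textbook sign of epithelial-mesenchymal transition.

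Positions are those of the deposited tables on GRCh38. CLDN3 (ENSG00000165215) lies on chromosome 7 at 73768997 to 73770270 on the minus strand. CLDN4 (ENSG00000189143) lies next to it at 73799542 to 73832690 on the plus strand, 29272 bases away. CLDN1 (ENSG00000163347) is on chromosome 3 at 190305707 to 190322446, minus strand. CLDN7 (ENSG00000181885) is on chromosome 17 at 7259903 to 7263983, minus strand, and overlaps ELP5 on the other strand. CLDN12 (ENSG00000157224) is on chromosome 7 at 90383721 to 90513402, plus strand, and overlaps GTPBP10 and CDK14 on the same strand. CDH1 (ENSG00000039068) is on chromosome 16 at 68737292 to 68835537, EPCAM (ENSG00000119888) on chromosome 2 at 47345158 to 47387601, and OCLN (ENSG00000197822) on chromosome 5 at 69492292 to 69558104, all 3 on the plus strand. TJP1 (ENSG00000104067) is on chromosome 15 at 29699367 to 29968915, minus strand, and DSP (ENSG00000096696) on chromosome 6 at 7541617 to 7586714, plus strand. Strand-specific counting is not stated, so reads of CLDN7 and ELP5 may not have been told apart where both genes share bases. CLDN12 shares its strand with GTPBP10 and CDK14, so a strand setting would not separate their reads. These overlaps are of whole gene spans, and overlap of exons was not examined.

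RefSeq promoter windows (GRCh38.p14), the 250 bases before a transcript start, were matched for 8 of the 10 genes, in 13 windows; CDH1 and EPCAM had no entry. They were searched on both strands for the E-box CAGGTG, which Slug and Snail bind, and for the forkhead motifs TGTTTAC and TGTTTGC. None of these motifs overlaps another in the windows shown. The E-box stood in 17.5% of all 35116 promoters of that length, TGTTTAC in 2.98% and TGTTTGC in 3.23%. The windows of CLDN1, CLDN3, CLDN4 and CLDN12 held none of the 3 motifs. The CLDN3 window is printed because CLDN3 and its neighbour CLDN4 gave the clearest difference between the knockdowns. It covers chr7:73770271-73770520, minus strand, and is in lower case throughout because it holds no match.
CLDN3 promoter: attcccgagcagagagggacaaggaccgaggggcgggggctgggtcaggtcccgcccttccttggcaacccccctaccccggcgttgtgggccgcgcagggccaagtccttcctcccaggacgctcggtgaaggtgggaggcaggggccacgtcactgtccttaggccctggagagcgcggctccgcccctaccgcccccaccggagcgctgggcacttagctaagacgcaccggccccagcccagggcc

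E-boxes were found in 1 CLDN7 window (4 matches), both OCLN windows, 1 TJP1 window and the DSP window (2 matches), and a forkhead match in another TJP1 window. The sites below are shown because they belong to genes whose direction differed: OCLN rose in both knockdowns, TJP1 fell in 1 and CLDN7 passed the test in neither. Each is read 5′ to 3′ on the strand of the gene, with the match in capitals and transcript starts numbered as in the RefSeq table (CACCTG is the E-box on the other strand).
OCLN E-box, 33 bases before the first start: ccatccgagtttCAGGTGaattggtcaccg
OCLN E-box, 133 bases before the second start: tctaggacgcagCAGGTGggactcgcggcg
CLDN7 E-box, 174 bases before the second start: tttcttcctcctCACCTGggcaaggagggg
CLDN7 E-box, 135 bases before the second start: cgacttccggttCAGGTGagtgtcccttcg
TJP1 E-box, 88 bases before the first start: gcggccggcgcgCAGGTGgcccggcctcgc
TJP1 forkhead match, 232 bases before the fourth start: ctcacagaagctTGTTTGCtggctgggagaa
The first OCLN window and the CLDN7 window lie wholly in annotated exons of their own gene (250 of 250 bases), the second OCLN window in part (120 bases), and the 2 TJP1 windows in none. A match is a description of the letters in the window, and binding was not measured.

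The libraries held between 12256092 and 15152890 counts, and the 10 genes took 0.190% to 0.255% of them. Normalized counts below are counts scaled to library size by TMM (CPM). FOXA1 stood at 170.5, 167 and 170.0 CPM in the FOXA1 knockdown, against 611, 594 and 541 CPM in its control, which is 28.6% to 29.3% of the control mean. TRIM28 stood at 126, 111 and 54.2 CPM in the TRIM28 knockdown, against 383, 408 and 401 CPM in its control, or 13.6% to 31.6% of the control mean. Each target was therefore low in every library of its knockdown. TRIM28 depletion also left less FOXA1 transcript, with 269.9, 244 and 394 CPM in that knockdown, against 564, 609 and 559 CPM in its control (log2 fold change -0.90, SE 0.17, adjusted p = 0.0055). In these bulk samples fewer cells of a type and less RNA per cell cannot be told apart.

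One TRIM28 knockdown library, replicate 3, was unlike the others of its group. The chi-square of its counts per degree of freedom was 22.6 and 20.4 against replicates 1 and 2, while every other pair within a group lay between 2.94 and 5.73. Its 6 fibroblast markers (COL1A1, COL1A2, DCN, LUM, PDGFRA, PDGFRB) summed to 279 CPM by library total, against 30.2 and 36.8 in replicates 1 and 2 and 27.3 to 32.5 in the TRIM28 control. In the FOXA1 pair the same sum was 29.6 to 36.5 in the knockdown and 29.3 to 32.3 in the control. N-cadherin (CDH2) stood at 0, 0.684 and 9.1 CPM in the TRIM28 knockdown and was listed at 0 in its 3 control libraries. P-cadherin (CDH3) showed the same pattern, with 0.0731, 0.836 and 8.86 CPM in the TRIM28 knockdown, against 0.14, 0.149 and 0 in its control. These 2 cadherins therefore rest on replicate 3, and both were below the count filter. Their part, and that of the fibroblast markers, in the TRIM28 results was not tested, so those results are given with and without this library where it decides a call. Endothelial markers (PECAM1, VWF, CDH5, KDR) summed to 11.4 to 15.8 CPM in the TRIM28 knockdown and 5.35 to 7.85 in its control, with 4.36 to 7.15 in the FOXA1 knockdown and 5.46 to 8.3 in its control. Leukocyte markers (PTPRC, CD3E, CD14, CD68, LCP1) summed to 34.0 to 39.7 CPM in the TRIM28 knockdown and 50.9 to 52.6 in its control, with 29.6 to 35.9 in the FOXA1 knockdown and 47.1 to 54.6 in its control. Basal markers (KRT5, KRT14, TP63) summed to 0.323 to 2.37 CPM in the TRIM28 knockdown and 0.32 to 0.432 in its control, with 2.93 to 3.5 in the FOXA1 knockdown and 0.3 to 0.998 in its control. The leukocyte sum was nearly all LCP1, with 430, 440 and 481 counts in the TRIM28 knockdown against 728, 711 and 630 in its control, and 537, 379 and 450 counts in the FOXA1 knockdown against 652, 814 and 717 in its control. The other 4 leukocyte markers had at most 10 counts in any library. The endothelial sum was carried by VWF, with 137, 132 and 117 counts in the TRIM28 knockdown against 102, 72 and 66 in its control. KDR had 62 counts in replicate 3 of the TRIM28 knockdown and at most 8 elsewhere, CDH5 had 11 in that replicate and at most 3 elsewhere, and PECAM1 had at most 7 anywhere. The basal sum in the FOXA1 knockdown was mostly KRT14, with 37, 36 and 48 counts against 5, 6 and 3 in its control. No marker of these lists was at 0 in all libraries, and their part was not tested.

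LNCaP cells carried 9 of the 10 transcripts at sizeable levels. Levels of different genes are set side by side only as FPKM, the deposited value per length. Over the 6 control libraries EPCAM was highest, at a median of 92.4 FPKM (lowest 86.3, highest 96.7). CLDN7 followed at 78.5 FPKM (68.6 to 85.0) and CDH1 at 74.7 FPKM (73.7 to 76.8). DSP had 61.8 FPKM (55.2 to 65.4), TJP1 51.9 FPKM (48.1 to 55.0) and CLDN12 38.8 FPKM (32.9 to 41.3). CLDN4 had 30.2 FPKM (27.5 to 31.3), CLDN3 12.7 FPKM (10.2 to 13) and OCLN 6.53 FPKM (5.83 to 7.08). CLDN1 was at 0.0893 FPKM (0.0208 to 0.174), near the detection limit. CLDN7 and CDH1 were the only neighbours in this order whose ranges overlapped, although DSP and TJP1 nearly touched. In the FOXA1 knockdown the order changed at the top: CDH1 averaged 125 ± 5.23 FPKM (SD, n = 3), against 75.0 ± 1.60 in its control, while EPCAM averaged 74.4 ± 2.77 FPKM, against 91.2 ± 4.33. CLDN4 reached 77.2 ± 3.00 FPKM in the FOXA1 knockdown, against 29.95 ± 2.14 in its control.

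**Figure D1:**
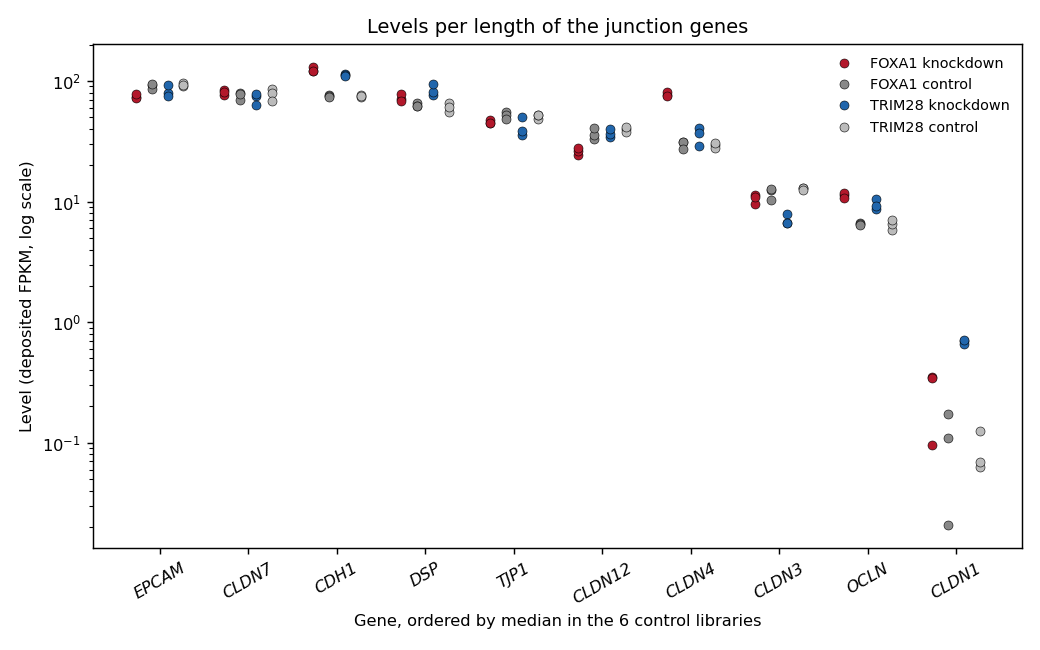
Deposited FPKM (log axis) of the 10 junction genes in all 12 libraries, ordered by the median of the 6 control libraries; each point is 1 library. EPCAM, CLDN7 and CDH1 lead in the controls, CLDN1 lies far below the rest, and CDH1 and CLDN4 stand above their controls in the FOXA1 knockdown.

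Depletion of FOXA1 raised E-cadherin, occludin and claudin-4 and lowered claudin-12 and EPCAM. Of the 9 genes that passed the count filter, 7 were called at an adjusted p below 0.05, 4 higher and 3 lower. Across all 14953 genes tested 52.4% were called, 26.1% higher and 26.3% lower, so 7 of 9 has to be read against a background of about 1 gene in 2. The junction genes were chosen with earlier results of these data known, so their share in either knockdown is no test against its background. The median log2 fold change was 0.07 over the 9 genes and -0.02 over all genes tested. Tests are edgeR's quasi-likelihood F-test, two-sided, with Benjamini-Hochberg adjustment over all genes tested.

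CLDN4 had 327, 339 and 316 CPM in the FOXA1 knockdown, against 134, 134 and 118 CPM in its control. The lowest knockdown library held more than the highest control library by a wide margin. The mean was 327 ± 11.8 CPM against 128 ± 9.26 CPM (SD, n = 3 each), a log2 fold change of 1.35 (SE 0.05, adjusted p = 9.28e-19), or 2.55-fold. CLDN12, a claudin outside the classic group, moved the other way, with 88.9, 94.1 and 100.4 CPM in the FOXA1 knockdown against 121, 131 and 149.6 CPM in its control. The groups did not overlap, and the log2 fold change was -0.51 (SE 0.07, adjusted p = 3.61e-06). CDK14, which overlaps CLDN12, had a log2 fold change of -0.59 and GTPBP10 one of -0.08. CLDN3 had 12.4, 14.5 and 14.0 CPM in the FOXA1 knockdown and 16.3, 16.7 and 13.3 CPM in its control, groups that overlapped (log2 fold change -0.19, SE 0.12, adjusted p = 0.206). CLDN7 had 149, 164 and 159.8 CPM against 158, 137 and 154 CPM in the control, also overlapping, with a log2 fold change of 0.07 and a 95% interval of -0.04 to 0.19 (adjusted p = 0.277). CLDN1 held 5, 16 and 17 counts in the FOXA1 knockdown and 1, 9 and 5 in its control, too few for the filter. Summed, these are 38 and 15 counts, a ratio of 2.49 after scaling (1.34 to 4.86, counting error only). That interval leaves out the spread between libraries, and knockdown replicate 1 stood at 94.4% of the control mean.

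CDH1 had 599.7, 637 and 594 CPM in the FOXA1 knockdown, against 381, 368 and 364 CPM in its control. Every knockdown library was above every control library, and the log2 fold change was 0.72 (SE 0.04, adjusted p = 5.22e-14). OCLN had 75.0, 77.1 and 69.5 CPM in the FOXA1 knockdown, against 44.0, 43.2 and 42.0 CPM in its control, a log2 fold change of 0.78 (SE 0.07, adjusted p = 7.40e-11). EPCAM had 115, 114 and 122 CPM in the FOXA1 knockdown, against 148, 137 and 150.4 CPM in its control. It fell by 0.31 on the log2 scale (SE 0.05, adjusted p = 2.40e-05), without overlap. TJP1 had 368, 381 and 359 CPM in the FOXA1 knockdown and 452, 428 and 397 CPM in its control, a log2 fold change of -0.20 (SE 0.05, adjusted p = 0.000669). DSP had 703, 763 and 677 CPM in the FOXA1 knockdown and 650.0, 614 and 617 CPM in its control, a log2 fold change of 0.19 (SE 0.05, adjusted p = 0.00122). The last 2 changes were small. In a fit of all 12 libraries with 1 shared spread TJP1 (adjusted p = 0.133) and DSP (adjusted p = 0.103) were not called, and against a minimum fold of 1.2 neither were TJP1, DSP and EPCAM (adjusted p of 0.921, 1.00 and 0.205).

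**Figure D2:**
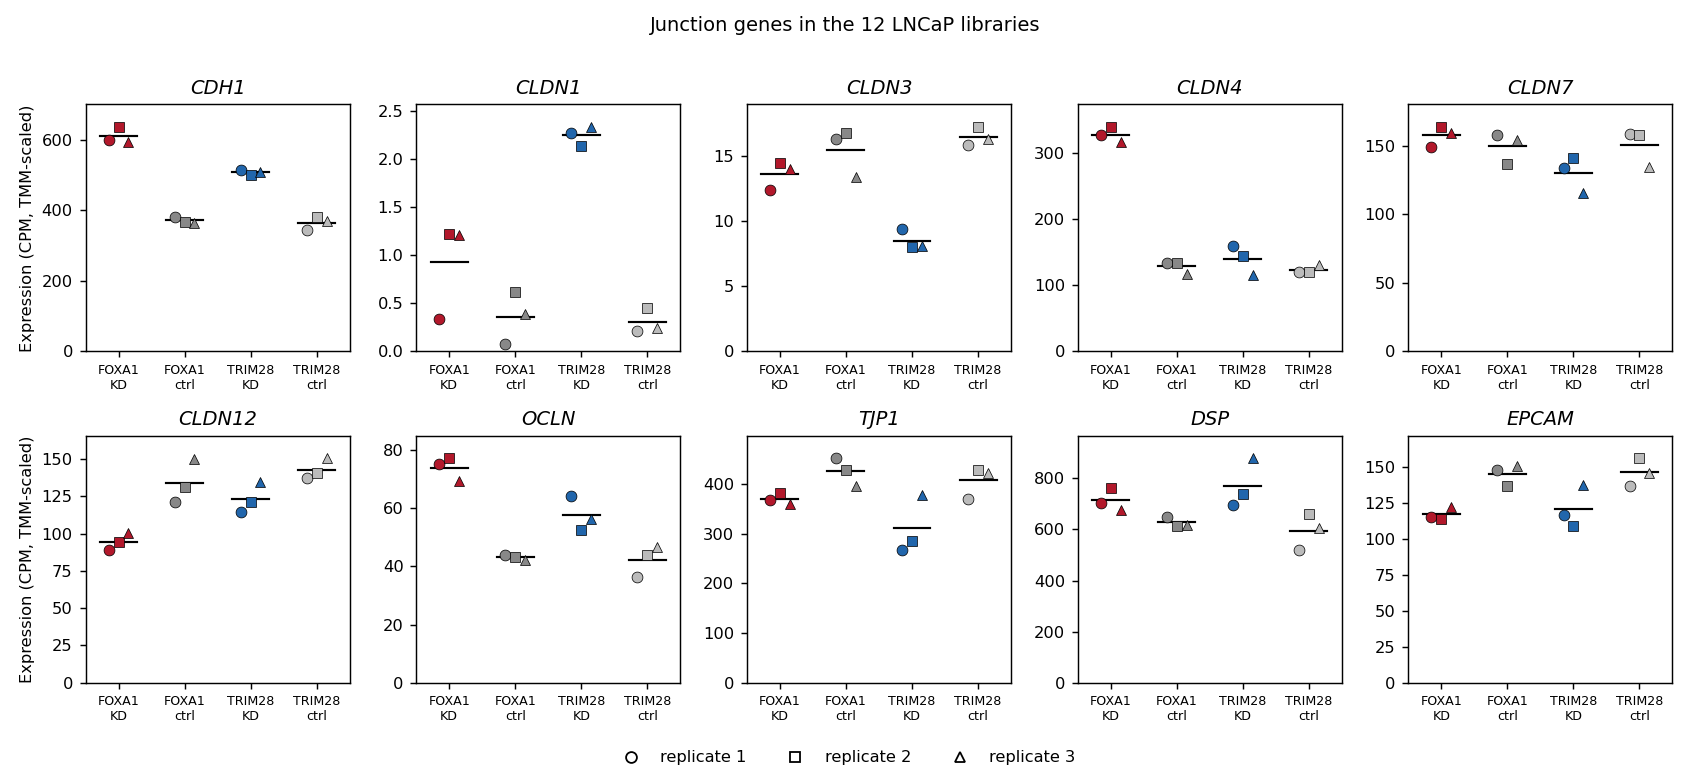
TMM-scaled CPM of each of the 10 junction genes, with a panel per gene and a linear axis from 0; points are libraries (KD, knockdown; ctrl, control) and lines are group means. CLDN4, CDH1 and OCLN lie above their control in every FOXA1 knockdown library, CLDN12 and EPCAM lie below it, and CLDN1 and CLDN3 part from the control in the TRIM28 knockdown.

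Depletion of TRIM28 also raised E-cadherin, occludin and desmoplakin, and it lowered claudin-3. Counts of the nearly silent claudin-1 were higher as well. All 10 genes passed the filter and 5 were called, 4 higher and 1 lower, against 26.7% of the 14981 genes tested (13.3% higher and 13.3% lower). CLDN1 passed only through its knockdown libraries, so it could be tested only because it was high there; of the other 9 genes 3 rose and 1 fell, with a median log2 fold change of -0.18. The median log2 fold change was 0.01 over the 10 genes and 0.00 over all genes tested.

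CLDN3 had 9.36, 7.98 and 8.08 CPM in the TRIM28 knockdown, against 15.8, 17.2 and 16.3 CPM in its control. All 3 knockdown libraries lay at 48.5% to 56.8% of the control mean, with a log2 fold change of -0.93 (SE 0.14, adjusted p = 0.00168). CLDN1 held 31, 28 and 30 counts in the TRIM28 knockdown, against 3, 6 and 3 counts in its control. Replicate 3 did not differ from the other 2 here. The summed ratio was 7.48 (4.08 to 15, counting error only), and this interval leaves out the spread between libraries. In CPM the knockdown counts are 2.27, 2.13 and 2.33, a low level even after the rise. The edgeR log2 fold change was 2.89. Its test carries no weight, because CLDN1 passed the filter only through the knockdown. CLDN4 had 159, 144 and 115 CPM in the TRIM28 knockdown and 119, 119.9 and 131 CPM in its control, groups that overlapped (log2 fold change 0.20, SE 0.11, adjusted p = 0.216). CLDN7 had 134, 141 and 116 CPM in the TRIM28 knockdown and 158, 158 and 135 CPM in its control (log2 fold change -0.18, adjusted p = 0.211). CLDN12 had 114, 121 and 135 CPM against 137, 140.3 and 150.4 CPM in the control (log2 fold change -0.18, adjusted p = 0.154).

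CDH1 had 515, 501 and 507 CPM in the TRIM28 knockdown, against 344, 381 and 368 CPM in its control. The knockdown libraries were close together, and the log2 fold change was 0.51 (SE 0.08, adjusted p = 0.00148). OCLN had 64.1, 52.5 and 56.1 CPM in the TRIM28 knockdown, against 36.3, 43.7 and 46.6 CPM in its control (log2 fold change 0.47, SE 0.12, adjusted p = 0.0140). DSP had 695, 739 and 878 CPM in the TRIM28 knockdown, against 519, 661 and 604 CPM in its control (log2 fold change 0.40, SE 0.11, adjusted p = 0.0257). EPCAM had 116, 109 and 137 CPM in the TRIM28 knockdown and 137, 156 and 146 CPM in its control, a log2 fold change of -0.25 that missed the threshold (adjusted p = 0.0979). TJP1 had 267, 286 and 378 CPM in the TRIM28 knockdown and 370.4, 429 and 423 CPM in its control, with a log2 fold change of -0.36 (adjusted p = 0.0629). For EPCAM and TJP1 only replicate 3 reached the range of the control.

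Without replicate 3 of the TRIM28 knockdown 9 of the 10 genes were called, 5 higher and 4 lower. CLDN1, 1 of these 9, passed the filter only through the knockdown. Of all 14981 genes tested 6867 were called in place of 3993, or 45.8% (21.9% higher and 23.9% lower). CLDN4 was then called at 0.31 (adjusted p = 0.00026), CLDN12 at -0.26 (adjusted p = 0.00179), EPCAM at -0.36 (adjusted p = 4.9e-05) and TJP1 at -0.54 (adjusted p = 2.0e-08), all as log2 fold changes. OCLN lost its call without control replicate 1 (adjusted p = 0.0740) or 2 (adjusted p = 0.0568), and DSP without control replicate 1 (adjusted p = 0.116) or 3 (adjusted p = 0.0871). CDH1 and CLDN3 were called in all 6 fits that left out a library.

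**Figure D3:**
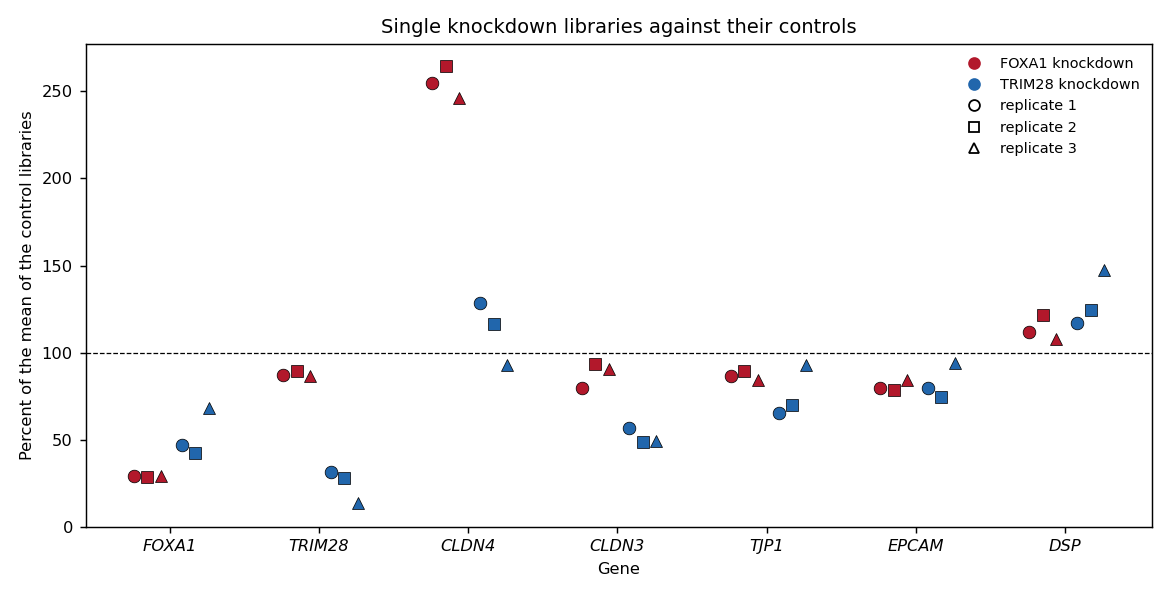
Level of FOXA1, TRIM28 and 5 junction genes in every knockdown library, as a percentage of the mean of its own control libraries (dashed line at the control mean); symbols give the replicate. In the TRIM28 knockdown, replicate 3 has the lowest TRIM28 level and lies nearer to the control than replicates 1 and 2 for FOXA1, TJP1 and EPCAM, while the 3 libraries lie close together for CLDN3.

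Claudin-4 and claudin-3 were the genes whose response differed between the knockdowns. The difference of the log2 fold changes, FOXA1 minus TRIM28, was 1.17 for CLDN4 (SE 0.13, adjusted p = 1.67e-05) and 0.76 for CLDN3 (SE 0.18, adjusted p = 0.0106), and 2 of 10 genes were called, against 10.6% of the 15921 genes tested. CLDN4 thus rose with FOXA1 depletion and not beyond the spread with TRIM28 depletion, while CLDN3 fell with TRIM28 depletion and not beyond the spread with FOXA1 depletion. For the other 8 genes the difference missed the threshold. CDH1 differed by 0.22, with an interval of 0.05 to 0.39 (adjusted p = 0.0882), OCLN by 0.31 (0.04 to 0.59, adjusted p = 0.145) and CLDN12 by -0.31 (-0.57 to -0.05, adjusted p = 0.122). EPCAM differed by -0.05, with an interval of -0.30 to 0.20 (adjusted p = 0.845), TJP1 by 0.17 (-0.15 to 0.48), DSP by -0.21 (-0.47 to 0.06) and CLDN7 by 0.27 (0.01 to 0.53). CLDN1 differed by -1.57 (-3.34 to 0.21). These intervals are those of single genes, unadjusted, and they do not show that the knockdowns act alike. Without replicate 3 of the TRIM28 knockdown CDH1 (0.23, adjusted p = 0.0175) and TJP1 (0.35, adjusted p = 0.00098) were called as well. In that fit 22.5% of all 15921 genes were called.

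**Figure D4:**
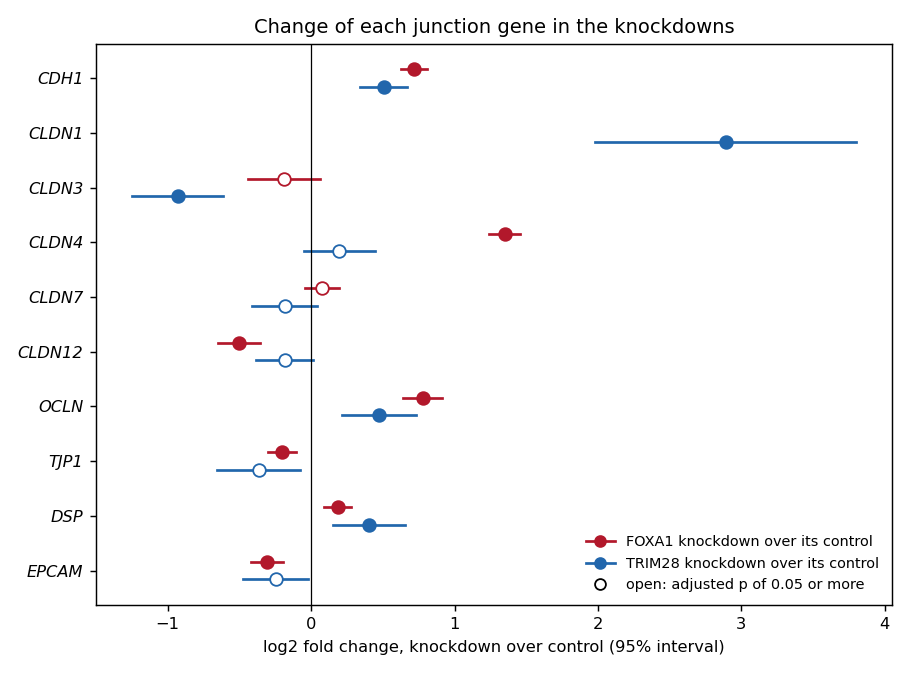
Log2 fold change of each junction gene with its 95% interval, FOXA1 knockdown and TRIM28 knockdown over their own controls; filled points have an adjusted p below 0.05 and open points do not, and CLDN1 has no point in the FOXA1 knockdown because it was not tested there. CDH1 and OCLN lie above 0 in both knockdowns, CLDN4 stands out in the FOXA1 knockdown, and CLDN3 (low) and CLDN1 (high) in the TRIM28 knockdown. CLDN1 passed the count filter only through that knockdown, so its filled point carries no weight.

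The neighbours of the CLDN3 and CLDN4 pair did not all follow either gene. ABHD11, 30130 bases from CLDN3, averaged 40.8 CPM in the FOXA1 knockdown and 26.8 CPM in its control (log2 fold change 0.61), with 23.9 CPM in the TRIM28 knockdown and 30.6 CPM in its control (log2 fold change -0.33, adjusted p = 0.0606). METTL27, 1900 bases from CLDN4, was not called in either knockdown (log2 fold changes -0.24 and -0.23, adjusted p of 0.239 and 0.356). CLDN16, which starts 95 bases from CLDN1 on the other strand, had a count of 0 in all 12 libraries. The 2 control groups gave the level of difference seen without a knockdown. None of the 9 genes tested was called between the TRIM28 control and the FOXA1 control, and 0% of the 14839 genes tested were called by edgeR (635 genes, none of them among the 9, had an unadjusted p below 0.05; DESeq2 called 0 genes). The 9 log2 differences between controls had a median of -0.02.

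The remaining parts of the junction were examined as lists, each with the number of genes called. In the FOXA1 knockdown 26.1% of all genes tested were called higher and 26.3% lower, and each count is to be read against those shares. The lists too were chosen with earlier results of these data known, so a count above those shares is no test. Among 27 other tight junction genes, 14 were tested in the FOXA1 knockdown and 5 rose and 3 fell, with a median log2 fold change of 0.16. CXADR, an adhesion protein that also serves as a virus receptor, rose with the smallest p, with 69.5, 75.6 and 77.4 CPM in the FOXA1 knockdown against 35.2, 30.2 and 32.7 CPM in its control (log2 fold change 1.18). LSR, which marks tricellular contacts, rose by 0.81, MARVELD3 by 0.69 and the junctional adhesion molecule F11R by 0.52 on the log2 scale. Among 20 polarity genes, all tested, 10 rose and 4 fell, with a median of 0.23. AMOTL2 rose by 1.89, AMOTL1 by 1.76 and AMOT by 1.34 on the log2 scale, all 3 angiomotin family scaffolds that bind YAP, while the scaffold MPDZ fell by 0.68. Among 16 other adherens junction genes 13 were tested, 8 rose and 1 fell, with a median of 0.28. They included the E-cadherin partners alpha-catenin (CTNNA1, log2 fold change 0.58) and beta-catenin (CTNNB1, 0.39), the nectin NECTIN1 (0.70) and vinculin (VCL, 0.28). Of 14 other desmosome genes 9 were tested, and none rose and 4 fell, with a median of -0.12. PKP1 had 0.743, 0.992 and 0.783 CPM in the FOXA1 knockdown against 4.06, 5.12 and 3.93 CPM in its control (log2 fold change -2.38), while PKP4 (-0.47) and PKP2 (-0.34) moved less. Among 12 EPCAM partners and membrane proteases, 10 were tested, 7 rose and 2 fell, with a median of 0.48, among them SPINT1 (0.75), CD9 (0.72), ADAM10 (0.71) and HPN (0.54). Of 7 gap junction genes 3 were tested, and GJB1 (0.79, adjusted p = 0.0118) and GJB2 (1.02, adjusted p = 0.0422) were called higher. GJB2 had 16, 23 and 15 counts in the FOXA1 knockdown against 11, 7 and 8 in its control and passed the filter only through the knockdown, while CLDN8, CTNNA2 and TSPAN8, which fell, passed only through the control. Over the genes that reached the filter in both groups, 5 of 13 tight junction genes rose and 2 fell, 8 of 12 adherens junction genes rose and 0 fell, and 7 of 9 EPCAM partners and proteases rose and 1 fell. Of the 28 list genes with the smallest p that were called in the FOXA1 knockdown, 24 kept the call in every fit that left out a library, and GJB1, GJB2, PERP and SNAI3 did not. GJB1 lost it without knockdown replicate 1 (adjusted p = 0.0628) or control replicate 1 (adjusted p = 0.0598), and GJB2 without knockdown replicate 2 (adjusted p = 0.194), control replicate 2 (adjusted p = 0.132) or control replicate 3 (adjusted p = 0.0769).

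**Figure D5:**
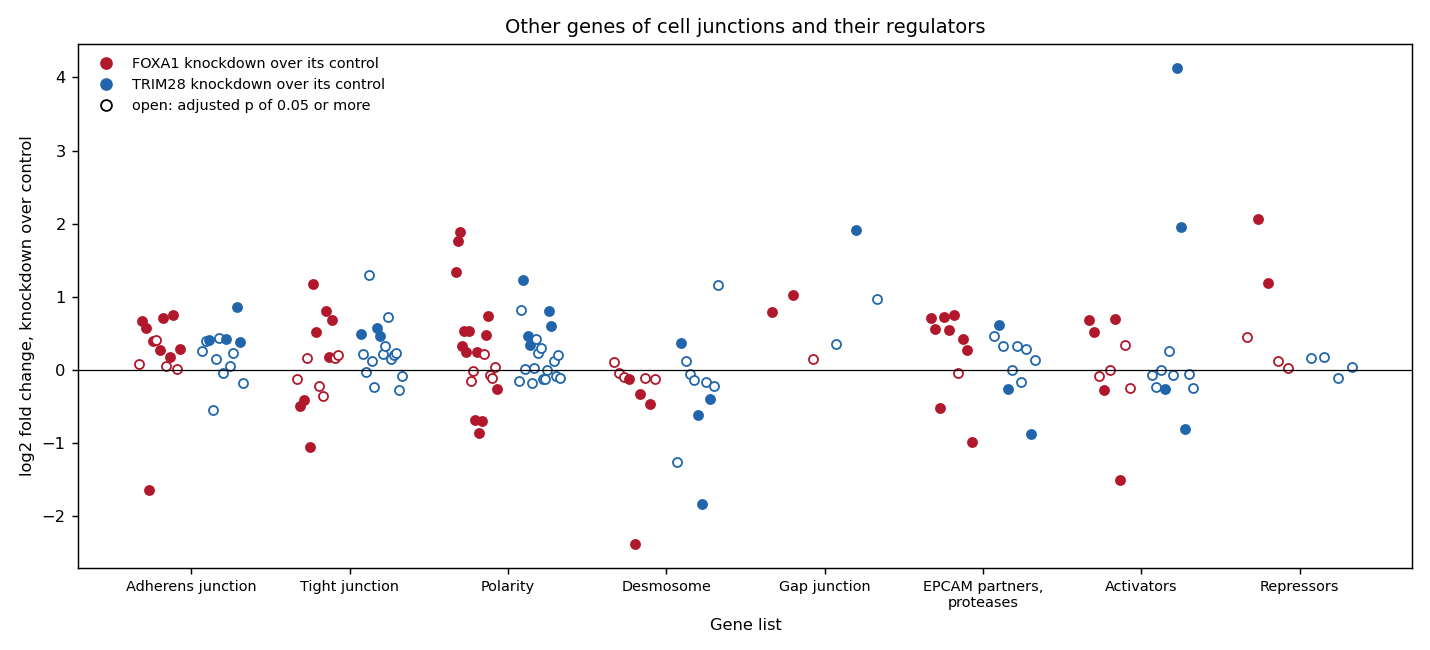
Log2 fold change of every tested gene of the junction lists, FOXA1 knockdown and TRIM28 knockdown over their own controls; each point is 1 gene, filled where the adjusted p is below 0.05. In the FOXA1 knockdown 8 of 13 adherens junction genes and 10 of 20 polarity genes are filled above 0, and no desmosome gene is. In these same lists the points filled below 0 are 4 polarity genes, 4 desmosome genes and the adherens junction gene CTNNA2. CTNNA2 passed the count filter only through the control. The tight junction, EPCAM partner and activator lists also hold points filled below 0. Of all genes tested in the FOXA1 knockdown 26.1% were called higher and 26.3% lower. The highest TRIM28 knockdown point is the activator GRHL3, which had 0, 2 and 1 counts in its control.

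The same lists were counted in the TRIM28 knockdown, where 26.7% of all genes tested were called, 13.3% in each direction. Calls in either direction, such as 5 of 20 polarity genes and 3 of 16 tight junction genes, are near 26.7% or below it. All of these calls were higher, so the 13.3% called higher is the share to set beside them. Of the other tight junction genes 16 were tested, with 3 higher and 0 lower and a median log2 fold change of 0.22: cingulin (CGN, 0.49), CXADR (0.57) and F11R (0.47). Of 20 polarity genes 5 rose and 0 fell, with a median of 0.16, led by AMOTL2 (1.23) and PARD6B (0.81). Of 13 adherens junction genes tested, 4 rose and 0 fell, with a median of 0.25, among them NECTIN4 (0.86) and CTNNA1 (0.41). Of 11 desmosome genes tested, 1 rose and 3 fell, with a median of -0.17, and PKP1 fell by 1.84 on the log2 scale. Of 10 EPCAM partners and proteases tested 1 rose (ADAM17, 0.61) and 2 fell, among them the androgen-regulated protease TMPRSS2 (-0.87), with a median of 0.21. Of 3 gap junction genes tested GJB2 was called (1.92, adjusted p = 0.0375), from 13, 15 and 31 counts in the TRIM28 knockdown against 8, 7 and 1 in its control, and it passed the filter only through the knockdown. Only 9 of the 23 named list genes called here kept the call in every fit that left out a library: CGN, AMOTL2, PARD6B, NECTIN4, CTNNA1, PKP1, TMPRSS2, ADAM17 and GRHL3. CXADR lost it without control replicate 1 (adjusted p = 0.0607), F11R without control replicate 1 (adjusted p = 0.051) or 3 (adjusted p = 0.0689), and GJB2 in 5 of 6 fits. GRHL3 had passed the count filter only through the knockdown, and these fits did not repeat the filter, so its kept call is no support. Without replicate 3 of the knockdown the counts of higher and lower were 5 and 0 for tight junction, 7 and 1 for polarity, 6 and 0 for adherens junction, 1 and 6 for desmosome, and 5 and 2 for EPCAM partners and proteases, with none called among gap junction genes. In that fit 45.8% of all 14981 genes were called, 21.9% higher and 23.9% lower, so these larger counts stand beside a larger background. With library size as the only scaling they were 4 and 0 for tight junction, 8 and 0 for polarity, and 4 and 1 for EPCAM partners and proteases, with 2597 higher and 1502 lower among all genes.

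Transcription factors that act on junction genes were listed as repressors (9 genes) and activators (11 genes). SNAI2, which encodes the E-cadherin repressor Slug, had 20.3, 18.1 and 18.7 CPM in the FOXA1 knockdown, against 3.84, 5.74 and 4.01 CPM in its control (log2 fold change 2.06). Slug and E-cadherin transcripts were thus both higher in the same 3 libraries. In the TRIM28 knockdown SNAI2 had 7.68, 5.78 and 4.90 CPM, against 5.09, 6.39 and 4.98 CPM in its control (log2 fold change 0.18), with groups that overlapped. Among the repressors 5 were tested in the FOXA1 knockdown, and 2 rose and 0 fell (SNAI2, and SNAI3 at an adjusted p of 0.0348), with a median of 0.45. Of the 4 repressors that reached the filter in both groups 1 rose and 0 fell. Of all genes tested there 26.1% were called higher and 26.3% lower. SNAI3 had 23, 11 and 11 counts in the FOXA1 knockdown against 8, 5 and 6 in its control and passed the filter only through the knockdown. It was not called without knockdown replicate 1 (adjusted p = 0.238), control replicate 2 (adjusted p = 0.111) or control replicate 3 (adjusted p = 0.062). In the TRIM28 knockdown 0 of the 4 tested were called, with a median of 0.11. ZEB2 stood at 0.07, 0.46 and 3.89 CPM in the TRIM28 knockdown, against 0.07, 0 and 0 CPM in its control, again highest in replicate 3. Among the activators 9 were tested in the FOXA1 knockdown, and 3 rose and 2 fell, with a median of 0.00. GRHL2, a grainyhead factor known from mouse epithelia to activate Cdh1 and Cldn4, had 511, 503 and 507 CPM in the FOXA1 knockdown, against 331, 323 and 288 CPM in its control (log2 fold change 0.69). In the TRIM28 knockdown GRHL2 had 290.0, 300.3 and 253 CPM, against 295, 304 and 306 CPM in its control, a log2 fold change of -0.08 (adjusted p = 0.535). ELF3 (0.69) and ELF5 (0.51) also rose in the FOXA1 knockdown, while KLF5 fell by 1.5. Of all genes tested in the TRIM28 knockdown 13.3% were called in each direction. Among the activators 2 of 11 were called higher there and 2 lower, with a median of -0.06. Both called higher, GRHL3 and HNF4A, passed the filter only through the knockdown. GRHL3 had 13, 12 and 32 counts in the knockdown against 0, 2 and 1 in the control, and HNF4A had 11, 17 and 18 counts against 5, 5 and 2. Of the 9 activators that reached the filter in both groups 0 rose and 2 fell.

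Over the 12 libraries CDH1 and OCLN moved most closely of all pairs among the 10 genes, with a Pearson r of 0.97 on log2 CPM. CLDN4 followed OCLN (r = 0.87) and CDH1 (r = 0.83) and ran against CLDN12 (r = -0.93), whereas CLDN3 and CLDN4 had an r of 0.02. Among 10660 genes compared, those closest to CLDN4 were CPPED1, TFEB and CAPN2 (r = 0.99 each), and those closest to CDH1 were EGLN3, ERO1A and KLF9 (r = 0.99 each). CLDN3 was most like DUSP9, PPP1R14B and NFKBIA (r = 0.98 each). These are descriptions over libraries that share their group, depth and scaling, and they carry no test.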

How the data were processed

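Poly(A) mRNA of LNCaP cells was sequenced in 12 libraries, 3 in each of 4 groups. The authors deposited unnormalized read counts for each knockdown with its control, keyed by gene symbol, and FPKM for all libraries. GRCh38 (hg38) is named in the submitters' processing notes. Which aligner, counter, strand setting and annotation were used is not stated in the sources at hand. The tables hold 60835 symbols on 62710 lines, and repeated symbols were kept once. For all 13022 genes checked the deposited FPKM equalled the count over 1 length and the library total (relative tolerance 0.001). Replicates are called biological in the series design. Groups were taken from titles and treatment labels, because the genotype labels of some replicates name other genes (FOXA2, TRIM29). The knockdown titles read "SH control", and the knockdown columns carry the prefix SI although the treatment labels read shRNA.

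Counts were tested with edgeR 4.0.16 in R 4.3.3 (TMM scaling; genes kept by filterByExpr at a minimum count of 10 and a total of 15; two-sided quasi-likelihood F-tests with robust fits; Benjamini-Hochberg adjustment, threshold 0.05), on the 6 libraries of each pair. The difference between knockdowns was a contrast over all 12 libraries. Alternatives were other scalings and filters, DESeq2 1.42.0, a replicate block, a minimum fold of 1.2, limma 3.58.1 on log2 FPKM (pseudocount 1 or 0.1), all 12 libraries in 1 fit, and each library left out. In simulated data 2-fold changes were recovered in 70% of cases for the FOXA1 knockdown, 66% for the TRIM28 knockdown and 55% for the difference. For 1.41-fold changes these shares were 53%, 24% and 13%, so a gene not called may still have changed. Members and lists were chosen with earlier results of these data known. Named list genes are the 4 with the smallest p in each list and knockdown. Motifs and 250-base promoters came from RefSeq GRCh38.p14, and exons from GENCODE. Windows that overlap annotated exons are not printed whole, and from them only short sites are shown. The check of luminal markers is not reported here. Intervals of count ratios cover counting error only.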

Additional observations from a re-analysis of the deposited data

Results flagged for a closer look

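The difference between the FOXA1 and TRIM28 knockdown effects, FOXA1 minus TRIM28, passed the interaction test for CLDN4, at 1.165 on the log2 scale, and for CLDN3, at 0.757. CLDN4 was higher than the control mean in 3 of 3 FOXA1 knockdown libraries and in 2 of 3 TRIM28 knockdown libraries. CLDN3 was lower than the control mean in 3 of 3 libraries of both knockdowns.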

How the results depend on the processing

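Counts of genes called moved past 1.5 times as follows. Against a minimum fold of 1.2, FOXA1 depletion gave 4305 of 14953 genes and 4 of 9 junction genes. TRIM28 depletion gave 1625 of 14981 genes and 3 of 10 junction genes, and the difference 708 of 15921 genes. The TRIM28 junction genes include CLDN1, which passed the filter only through the knockdown. Without a count filter 8 genes differed between the controls. With a library left out the FOXA1 knockdown gave 7028 to 7568 of 14953 genes and 7 of 9 junction genes. The TRIM28 knockdown gave 1877 to 6867 of 14981 genes and 3 to 9 of 10 junction genes, with CLDN1 among these in every such fit. It gave 1877 genes without control replicate 2, 2044 without control replicate 1 and 6867 without knockdown replicate 3. The difference gave 1199 to 3583 of 15921 genes and 2 to 4 of 10 junction genes. The controls gave 0 to 1 of 14839 genes and 0 of 9 junction genes. With library size as the only scaling, the TRIM28 knockdown had 2597 genes higher and 1502 lower, against 1994 and 1999 with TMM, and the difference 751 higher and 1126 lower, against 952 and 731; this scaling moved the median of all genes by 0.07 and -0.07. Replicate numbers did not pair the libraries (correlations of -0.01, 0.006 and 0.11 in the FOXA1 pair and 0.04, -0.08 and 0.009 in the TRIM28 pair). A replicate block called 7997 of 14953 genes after FOXA1 depletion, 1579 of 15921 for the difference and 0 between controls. After TRIM28 depletion it called 3846 of 14981 genes and 6 of 10 junction genes, with TJP1 added at -0.38 (adjusted p = 0.0235). The following log2 values changed sign when 1 library was left out. EPCAM for the difference ranged over -0.12 to 0.061 (0.061 without TRIM28 knockdown replicate 3). Between controls CDH1 ranged over -0.037 to 0.0023 (also 0.0017), CLDN7 over -0.043 to 0.10 (also -0.041 and -0.00064), EPCAM over -0.021 to 0.054 (also -0.014), OCLN over -0.087 to 0.055 and DSP over -0.14 to 0.00040. For FOXA1 depletion GJC1 ranged over -0.25 to 0.44 (also -0.11) and ELP5 over -0.095 to 0.042. For TRIM28 depletion SNAI2 ranged over -0.0089 to 0.31, TCF4 over -0.16 to 0.15 (also -0.049) and SNAI1 over -0.13 to 0.42. Of the single-gene values, 1635 kept direction and side of the threshold, 124 fell below it, 25 rose past it and 17 reversed. The causes were not tested. Among junction genes, TJP1 in the TRIM28 knockdown was also called by DESeq2 (adjusted p = 0.0464), without a count filter (0.00194) and in the fit of all 12 libraries (0.0130), EPCAM in that fit (0.0265), while OCLN (0.0935) and DSP (0.179) were not called there against a minimum fold of 1.2. For the difference, CLDN12 was called with library size alone (0.0462), CDH1 by DESeq2 (0.0460) and CLDN1 by limma on log2(FPKM + 1) (0.0391). CLDN1 was below the count filter in the FOXA1 knockdown.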

Other observations

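Among the neighbours of the junction genes, SLC2A4, which encodes the glucose transporter GLUT4 and lies 17684 bases from CLDN7, averaged 1.13 CPM in the FOXA1 knockdown and 5.24 CPM in its control (log2 fold change -2.21), and 1.44 CPM in the TRIM28 knockdown and 5.42 CPM in its control (log2 fold change -1.88). P3H2, the collagen prolyl 3-hydroxylase gene 183270 bases from CLDN1, averaged 26.4 CPM in the FOXA1 knockdown and 10.9 CPM in its control (log2 fold change 1.27), while its TRIM28 knockdown libraries averaged 7.19 CPM against 10.7 CPM in the control (log2 fold change -0.54, adjusted p = 0.066). FZD1, a Wnt receptor gene 750962 bases from CLDN12, averaged 71.5 CPM in the FOXA1 knockdown and 41.6 CPM in its control (log2 fold change 0.78). These genes were looked at as the nearest coding genes, after the values of the junction genes were known.

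Further transcripts followed replicate 3 of the TRIM28 knockdown. Connexin 43 (GJA1) had 0.22, 0.38 and 10.0 CPM in that knockdown, against 0.07, 0.15 and 0.16 CPM in its control. CD44 had 0.37, 0.68 and 6.76 CPM in the knockdown, against 0.42, 0.07 and 0.57 CPM in its control. Both were below the count filter and have no test.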
